A study of Bos taurus with 8 samples.

Results

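Apolipoproteins and the proteins that load lipid onto them were measured in the liver of fetal calves whose dams were fed little or much during gestation. The group was fixed by name and holds 10 genes: APOA1, APOA2, APOA4, APOA5, APOB, APOC3, APOE, APOH, APOM and MTTP. Probes were assigned to a gene by the RefSeq accession printed for each spot. In this way 9 of the 10 genes were matched, by 18 probes, among 10860 genes with a detected probe on the array. APOB, the structural protein of very low density and low density lipoproteins, had 0 matched probes and was not analysed here. Every one of the 18 probes was well above background on all 8 arrays, so none of the 9 matched genes was lost to the filter on dim signals.

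The low-nutrition (LN) group comprised 4 Japanese Black fetuses whose dams received 60% of their nutritional requirement, and the high-nutrition (HN) group comprised 4 fetuses whose dams received 120%. All fetuses were taken at 8.5 months post-conception, and day 260 ± 8.3 of gestation is given in the labels. By the labels, the diets were also fed in the prepregnant period. Dams were inseminated with male-sorted semen of a single sire, so breed, sire and selection for sex are shared by both groups. The 4 lightest of 5 LN fetuses and the 4 heaviest of 6 HN fetuses were chosen for the arrays, and no group was fed exactly at requirement, so LN and HN are the ends of a range. The labels give 1 fetus per array, whereas the series description speaks of RNA pooled within each group. The arrays are treated here as 8 fetuses, named L5, L6, L8 and L9 in LN and L1, L2, L3 and L10 in HN.

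Lipoproteins carry triglyceride, cholesterol and phospholipid through plasma, and the liver secretes most of their protein. Very low density particles are built in the endoplasmic reticulum, where the microsomal triglyceride transfer protein (MTTP) moves lipid onto APOB as it is made. APOA1 and APOA2 are the main proteins of high density lipoprotein. Smaller apolipoproteins exchange between particles and govern their fate in plasma: APOA5 promotes and APOC3 opposes the clearance of triglyceride by lipoprotein lipase, and APOE is the ligand by which remnants are taken up.

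APOA5 is the member that the study also measured by PCR. Its primer pair is shown because it was designed on transcript NM_001083492, the accession to which both APOA5 probes of the array were matched. No base is marked, and the PCR values were not analysed here.
APOA5 forward: gagaggcttctgggactacttcag
APOA5 reverse: agcttttccaggaacttgtccata

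Each array lay in 1 of 2 slides and was read in 1 of 2 scans, with all LN arrays on one slide and all HN arrays on the other, so slide, scan and diet cannot be told apart. Between 32621 and 34367 spots of an array were well above background, and 0 spots were saturated. Signals are log2 intensities, quantile normalized so that all arrays share the same set of values, and a gene with several probes is represented by its brightest detected probe. The labelled tissue, fetal liver, was checked on 10 hepatocyte markers, and all of them were detected. Their log2 summed signal ran from 21.07 to 21.16 in LN and from 21.06 to 21.23 in HN, but the brightest probes, which make up most of this sum, have nearly the same values on every array after quantile normalization, so it does not compare the hepatocyte content of the groups. All 7 detected erythroid markers had a higher mean in LN, and their log2 summed signal ran from 13.95 to 17.36 in LN and from 11.84 to 15.44 in HN; SLC4A1, EPB42 and KLF1 were not detected. For 7 neutrophil precursor markers it ran from 12.66 to 14.29 in LN and from 11.52 to 12.65 in HN, and 5 of the 7 had a higher mean in LN while LTF and BPI had a lower one. Of the detected markers of other cells, 5 of 5 for lymphocytes, 7 of 9 for macrophages and 6 of 8 for stellate cells and fibroblasts had a lower mean in LN, while 5 of 8 for endothelial cells and 3 of 4 for cholangiocytes had a higher one, and the summed signals of these 5 lists overlapped between the groups. The part of blood cells in the differences below was not tested, and in whole tissue fewer cells of a type and less RNA per cell cannot be told apart.

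The 9 genes separated into 4 with a lower mean signal in LN by 0.38 to 0.67 on the log2 scale (APOA4, APOA5, APOC3 and APOM) and 5 with a difference between -0.10 and 0.020 (APOA1, APOA2, APOE, APOH and MTTP). By limma, fitted on all 33439 detected probes with Benjamini-Hochberg adjustment, 0 of the 9 genes had an adjusted p under 0.05, the lowest being 0.785, and 0% of all detected probes did. Before adjustment 1 of the 9, APOA5, passed this level in limma, which 6.05% of all genes did, 2.75% with a lower and 3.3% with a higher mean in LN. A 2-sided test with equal variances per probe, which the methods state for metabolites and not for arrays, gave 0 of 9 before adjustment. The count in limma before adjustment was 0 without LN fetus L5 or L9 or HN fetus L1 or L10, 2 without HN fetus L2 and 3 without HN fetus L3. Without LN fetus L6 it was 1, but this was APOA4, and APOA5 had an unadjusted limma p of 0.0867. The mean was lower in LN for 6 of the 9 genes against 48.4% of all genes, and the median log2 difference was -0.10 over the 9 against 0.0075 over all genes. With scaling to the 75th percentile these medians were -0.075 and -0.023, and 54.4% of all genes had a lower mean in LN. The values of LN and HN overlapped for all 9 genes, while 4.14% of all genes did not overlap, and in 1.56% all LN values lay below all HN values.

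**Figure D1:**
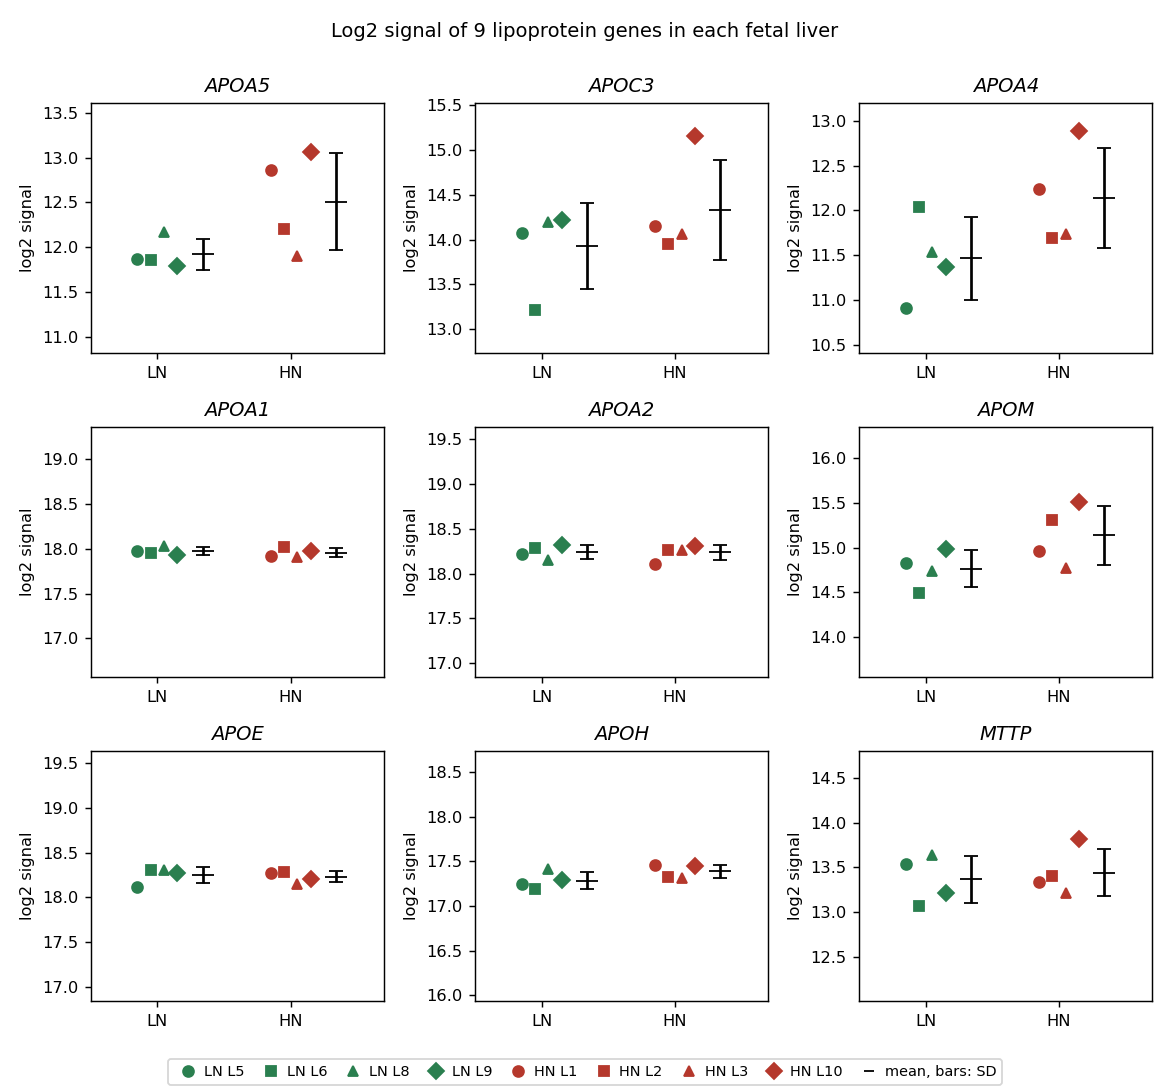
Log2 signal (y axis, the same span of values in each panel) of the brightest probe of each gene in LN (green) and HN (red) fetuses; each symbol is 1 fetus, and the black dash and bars give the mean and SD (n = 4 each). HN fetus L10 (red diamond) is the highest of 8 for APOA5, APOC3, APOA4, APOM and MTTP, and APOA1, APOA2, APOE and APOH vary little.

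Among the genes that govern plasma triglyceride, APOA5 had a signal of 11.87, 11.86, 12.17 and 11.79 in LN fetuses L5, L6, L8 and L9. In HN fetuses L1, L2, L3 and L10 it was 12.86, 12.21, 11.90 and 13.06. The 4 LN fetuses lay close together, while HN fetuses L1, L2 and L10 stood above all of them, L2 by a small margin, and L3 lay among them. The mean was 11.92 ± 0.17 in LN and 12.51 ± 0.54 in HN (SD, n = 4 each), a log2 difference of -0.59 (standard error 0.25, limma adjusted p = 0.785, exact permutation p = 0.0571, 2-sided). On the linear scale the LN signal was 0.665 of the HN signal. With 4 fetuses against 4, the smallest p that this exact test allows is 0.0286.

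The dimmer APOA5 probe differed by -0.69 (standard error 0.44), with a signal between 6.31 and 7.30 in LN and between 6.19 and 8.23 in HN. Both probes therefore had the same direction, and on both L10 was the highest and L1 the next. The overlap of the brighter probe came from LN fetus L8 and HN fetus L3: without L3 the difference was -0.79 and without L10 it was -0.40.

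APOC3, an inhibitor of triglyceride clearance, had a signal of 14.07, 13.21, 14.20 and 14.22 in LN (L5, L6, L8, L9). In HN (L1, L2, L3, L10) it was 14.15, 13.95, 14.06 and 15.16. Apart from a low value in L6 and a high value in L10, the other 6 fetuses of both groups lay within 13.95 and 14.22. The log2 difference of -0.41 (standard error 0.32, limma adjusted p = 0.852, exact permutation p = 0.543) rested on these fetuses, being -0.13 without L10 and -0.17 without L6.

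APOA4, an apolipoprotein of chylomicrons and high density lipoprotein, had the largest difference of the 9 genes by their brightest probes over all 8 fetuses, although without LN fetus L5 it was -0.49 and that of APOA5 -0.57. Its signal was 10.92, 12.04, 11.54 and 11.37 in LN (L5, L6, L8, L9) and 12.24, 11.70, 11.74 and 12.89 in HN (L1, L2, L3, L10). L5 was the lowest and L10 the highest of the 8, and only LN fetus L6 lay within the HN range. The means were 11.47 ± 0.46 in LN and 12.14 ± 0.56 in HN (SD, n = 4 each), a log2 difference of -0.67 (standard error 0.31, limma adjusted p = 0.785, exact permutation p = 0.114). It was -0.86 without L6 and -0.42 without L10. Of the 10860 genes, 1.60% had a more negative difference than APOA4 and 2.46% one more negative than APOA5.

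APOM, which carries sphingosine 1-phosphate on high density lipoprotein, had a signal of 14.83, 14.49, 14.73 and 14.99 in LN (L5, L6, L8, L9). In HN (L1, L2, L3, L10) it was 14.97, 15.30, 14.77 and 15.51. HN fetuses L2 and L10 exceeded every LN fetus, and L1 and L3 did not. The log2 difference was -0.38 (standard error 0.19, limma adjusted p = 0.787, exact permutation p = 0.143), and it was -0.50 without L3 and -0.25 without L10.

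The main proteins of high density lipoprotein showed a different picture. APOA1 had a log2 signal between 17.93 and 18.03 in LN and between 17.91 and 18.02 in HN, and its difference was 0.020 (95% interval of limma from -0.20 to 0.24). APOA2 ran from 18.15 to 18.32 in LN and from 18.11 to 18.31 in HN, with a difference of 0.0066 (95% interval from -0.23 to 0.25). In both genes the groups covered nearly the same range. These probes were among the brightest of the array, at rank 20 to 30 for APOA1 and 6 to 15 for APOA2 among 43637 probes. Since quantile normalization gives every array the same top values, such probes can differ only by their rank. Scaled to the 75th percentile of each array instead, without that limit, the differences were 0.022 (standard error 0.16) and 0.032 (standard error 0.19). Both were less precise than after quantile normalization, where the standard errors were 0.098 and 0.11. The dimmest APOA1 probe, at rank 700 to 1021, differed by -0.12 (standard error 0.18), with a signal from 14.05 to 14.49 in LN and from 13.93 to 14.60 in HN. The direction of APOA1 and APOA2 was not stable: the other APOA1 probe differed by -0.048 and the other APOA2 probe by -0.051, and normexp background correction gave -0.017 and -0.036 for the brightest probes.

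APOE, the remnant ligand, had a signal between 18.11 and 18.31 in LN and between 18.15 and 18.28 in HN on its brightest probe, which held rank 7 to 15. The difference was 0.020 (95% interval from -0.22 to 0.26), and 0.051 (standard error 0.18) with scaling to the 75th percentile. Its dimmer probe, with a wider span to move in, gave 14.51, 14.32, 14.56 and 14.53 in LN (L5, L6, L8, L9) and 14.78, 14.76, 13.82 and 14.67 in HN (L1, L2, L3, L10). L3 was low on this probe and the other 3 HN fetuses lay above all LN fetuses. It differed by -0.026 (standard error 0.22, 95% interval from -0.52 to 0.47, exact permutation p = 1), so the probes disagreed in direction.

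APOH, beta-2-glycoprotein I, a plasma protein that binds phospholipid, differed by -0.10 (standard error 0.11, limma adjusted p = 0.891). With scaling to the 75th percentile the difference was -0.058 (standard error 0.14). The quantile normalized signal of APOH lay between 17.19 and 17.41 in LN and between 17.32 and 17.46 in HN. All 3 LN fetuses other than L8 lay below the lowest HN fetus. The other probes differed by -0.13 and -0.052, so the 3 probes shared their direction, and on each of them LN and HN overlapped.

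MTTP, which loads lipid onto APOB, had a signal of 13.54, 13.07, 13.64 and 13.21 in LN (L5, L6, L8, L9) and 13.33, 13.40, 13.22 and 13.82 in HN (L1, L2, L3, L10). The groups were interleaved, with L6 lowest and L10 highest. The log2 difference was -0.076 (standard error 0.18, 95% interval from -0.49 to 0.34), and the other probes gave -0.036 and -0.086. Without L10 it was 0.049 and without L6 it was 0.022, so its direction depended on single fetuses.

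**Figure D2:**
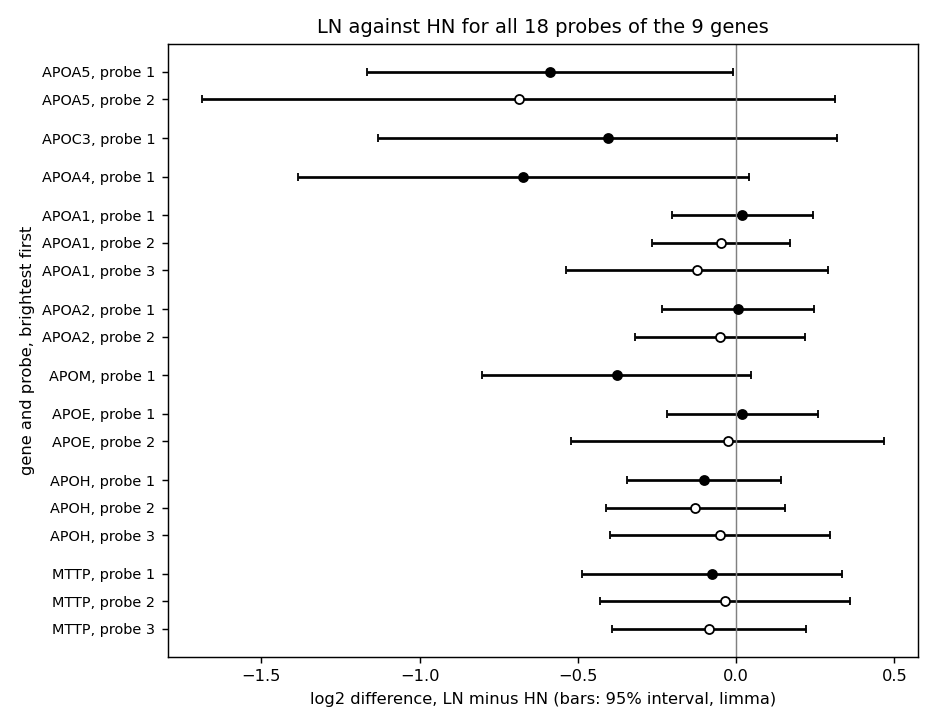
Log2 difference LN minus HN (x axis) for the 18 probes of the 9 genes (y axis, brightest probe of a gene first and filled, others open), with 95% intervals from limma, unadjusted. The interval of the brightest APOA5 probe, from -1.16 to -0.011, is the only one of the 18 that leaves out 0.

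Within the 9 genes the fetuses did not vary alike. After each gene was centred on its mean over the 8 fetuses, HN fetus L10 was above the mean for 8 of 9 genes and the highest of all fetuses for 5, with a median deviation of 0.41. APOE was the exception, at -0.030. LN fetus L6 was the lowest of all fetuses for 4 genes (APOC3, APOH, APOM and MTTP) and had a median deviation of -0.15, yet was the highest LN fetus for APOA4. HN fetus L3 was above the mean for 1 gene, with a median deviation of -0.066. The medians of the remaining fetuses lay between -0.092 and 0.066.

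**Figure D3:**
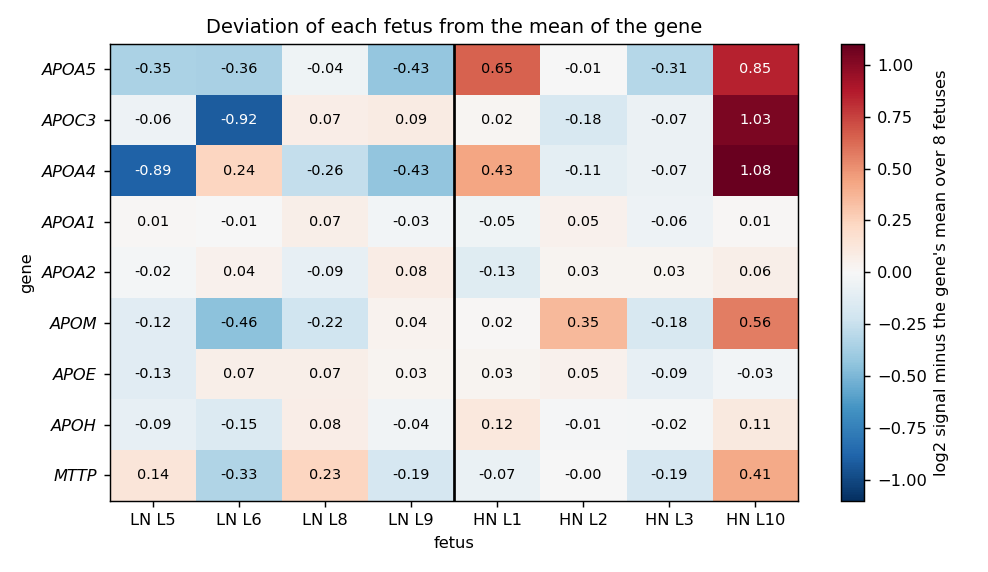
Log2 signal of each gene (rows) in each fetus (columns, LN left of the line and HN right of it) after subtraction of the gene's mean over the 8 fetuses; red is above and blue below that mean. The column of HN L10 holds the highest values, up to 1.08 for APOA4, and the lowest are -0.92 for APOC3 in LN L6 and -0.89 for APOA4 in LN L5.

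In the reference annotation (assembly ARS-UCD2.0), APOA5, APOA4, APOC3 and APOA1 follow each other on chromosome 15 with no other protein-coding gene between them. Only this order is used, since the probes were laid out on an older build, UMD 3.1. Of these neighbours, APOA5, APOA4 and APOC3 had their highest signal in L10, and APOA1 had its highest in L8. To compare them within an array, the log2 signal of each neighbour was subtracted from that of APOA5, and LN and HN were compared by the exact permutation test over 3 pairs chosen after the values were seen. Against APOA1, the log2 ratio of APOA5 differed by -0.61 between LN and HN (standard error 0.28, exact permutation p = 0.0571, Benjamini-Hochberg adjusted p = 0.171). Against APOC3 it was -0.18 (standard error 0.31, exact permutation p = 0.600) and against APOA4 it was 0.084 (standard error 0.27, exact permutation p = 0.771), both with an adjusted p of 0.771. No pair passed the threshold. Since APOA1 hardly varied between arrays on this scale, its pair repeats the difference of APOA5 itself. APOE lies on chromosome 18 next to APOC4 and APOC2, for which the differences were -0.077 (standard error 0.23) and -0.086 (standard error 0.18).

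A list of 60 other lipoprotein genes was compared in the same way, of which 46 had a matched and detected probe. Of the 46, 37 had a lower and 9 a higher mean in LN, where 48.4% of all genes had a lower mean. Their median log2 difference was -0.087, against 0.0075 over all genes. With scaling to the 75th percentile 36 were lower, and the medians were -0.14 and -0.023. After adjustment, limma called 0 of 46, and before adjustment 3, each with a lower mean in LN (2.75% of all genes). The 9 other apolipoproteins and particle proteins, among them APOC2, APOC4, CLU and PON3, all had a lower mean in LN by their brightest probe. For APOC2, CLU and PON3, HN fetus L10 was the highest of the 8. SAA4, also among the 9, was near the floor, at 0.69 to 4.21, and well above background on 1 LN and 3 HN arrays. It differed by -0.14 (standard error 0.76). The smallest difference of these 9 was that of APOD, -0.063, whose dimmer probe differed by 0.30. PON1, a lipid-hydrolysing enzyme of high density lipoprotein, had the largest of the 46, -1.25 (standard error 0.63, limma adjusted p = 0.787, exact permutation p = 0.143), and -1.32 on its other probe. Both PON1 probes were dim. The brighter ran from 3.40 to 7.48, and the other was well above background on 3 LN and 4 HN arrays. On the brighter probe HN fetus L10 was high at 7.48 against 4.41 to 5.97 in the other HN fetuses, and without L10 the difference was -0.72. These apolipoproteins and particle proteins were picked for naming after their values were seen. Of the transcription regulators, 9 of 10 had a lower mean, with values from -0.40 to 0.026, and of the sterol and phospholipid transporters 1 of 4.

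The 3 called before adjustment were PLTP, SOAT2 and APOF. PLTP, which transfers phospholipid between lipoproteins, had a signal of 9.37, 9.66, 9.17 and 9.17 in LN (L5, L6, L8, L9) and 9.89, 9.98, 10.17 and 9.65 in HN (L1, L2, L3, L10). Only L6, by a small margin, exceeded the lowest HN fetus. The log2 difference was -0.58 (standard error 0.16, limma adjusted p = 0.760, exact permutation p = 0.0571). L10, the highest fetus for 5 of the 9 genes above, was the lowest HN fetus for PLTP.

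SOAT2, which esterifies cholesterol for lipoprotein cores in the liver, had a signal of 12.35, 12.21, 12.64 and 11.94 in LN and 12.79, 12.59, 12.76 and 13.12 in HN, in the same order of fetuses. The groups overlapped only by LN fetus L8 and HN fetus L2, and LN minus HN was -0.53 (standard error 0.18, limma adjusted p = 0.760, exact permutation p = 0.0571). APOF, an inhibitor of cholesteryl ester transfer, differed by -0.64 (standard error 0.28, limma adjusted p = 0.785, exact permutation p = 0.114), with HN fetus L3, at 9.98, among the LN fetuses. Its unadjusted limma p of 0.0468 was 0.0505 with scaling to the 75th percentile and 0.0604 without the filter on dim probes, and it lay between 0.0767 and 0.125 without any of L5, L8, L9, L1, L2 or L10.

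ANGPTL4, a secreted inhibitor of lipoprotein lipase, differed by -0.75 (standard error 0.59, limma adjusted p = 0.852, exact permutation p = 0.429). Its signal ran from 8.89 to 9.33 in LN, and in HN it was 8.82, 11.28, 8.65 and 10.96 (L1, L2, L3, L10). The HN fetuses fell on both sides of LN, with L2 and L10 high and L1 and L3 below every LN fetus. The difference was -0.30 without L2 and -1.17 without L3. The study also measured ANGPTL4 by PCR, in more fetuses than the arrays, and reported it, like APOA5, as lower in LN. Those PCR values were not analysed here. CREB3L3, a liver transcription factor known to act on APOA5 and APOA4, was picked from the list after its values were seen. Its signal was 11.64, 11.44, 11.75 and 11.94 in LN and 12.15, 12.32, 11.50 and 12.27 in HN, and its difference was -0.37 (standard error 0.20, limma adjusted p = 0.797, exact permutation p = 0.143). HN fetus L3 lay among the LN fetuses on this probe, and the other 3 HN fetuses lay above them. On the dimmer CREB3L3 probe, which differed by -0.43 (standard error 0.18, limma adjusted p = 0.785, exact permutation p = 0.114), L3 was instead the highest of the 8 at 11.01, and LN fetus L9 lay within the HN range. With each fetus left out, the difference of the brighter probe ran from -0.56 without L3 to -0.28 without L2.

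**Figure D4:**
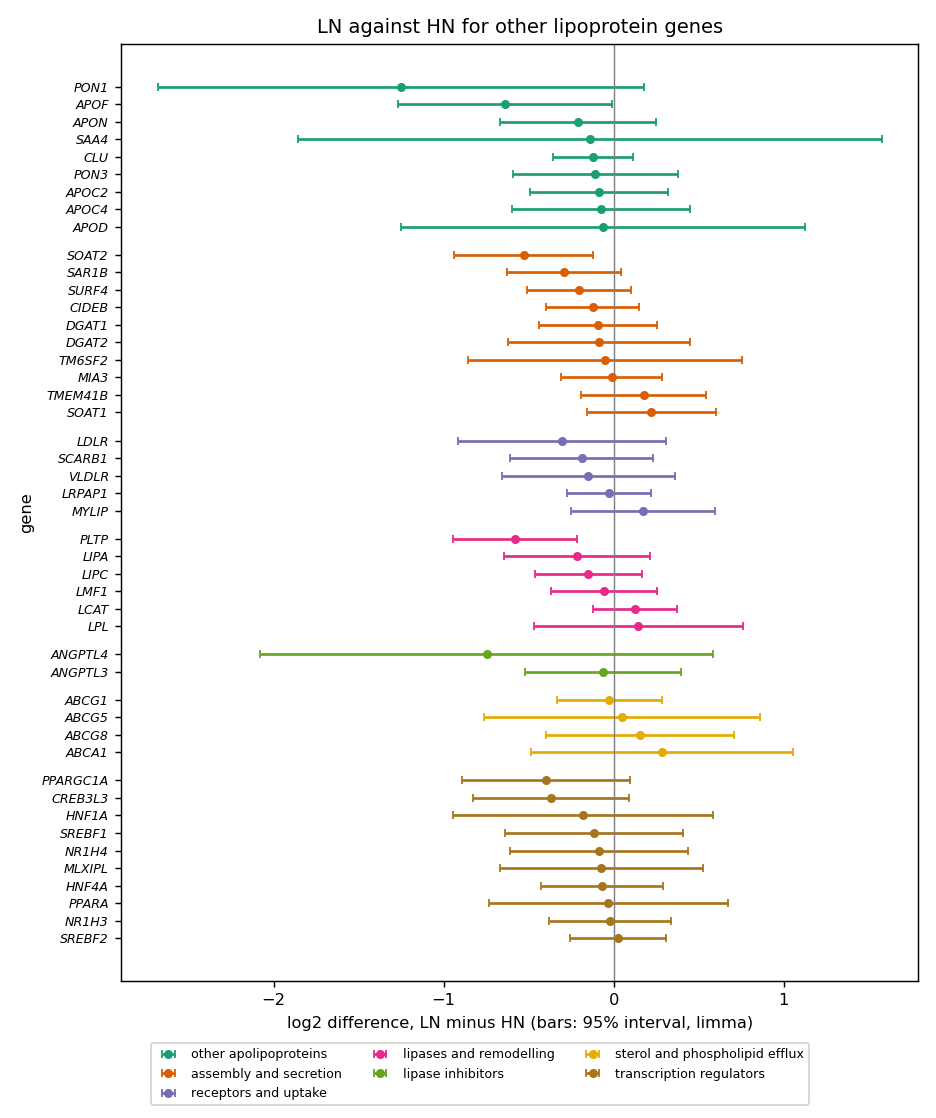
Log2 difference LN minus HN (x axis) of the brightest detected probe of 46 other lipoprotein genes (y axis), coloured by role, with 95% intervals from limma, unadjusted. Most points lie left of 0 (37 of 46), and the intervals of PLTP, SOAT2 and APOF leave out 0.

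The genes whose course over the 8 fetuses was closest to that of APOA5 were MIF, GK5, DHRS4, ORMDL3 and SULT2A1. Likeness was measured as the root mean square distance between log2 signals centred on each gene's mean, over 10859 genes, and it was 0.14 for MIF, 0.17 for GK5, 0.19 for DHRS4, 0.19 for ORMDL3 and 0.20 for SULT2A1. The root mean square of APOA5 itself was 0.46 on the same scale. In each of the 5 genes L10 was high, and their log2 differences lay between -0.53 and -0.37. Both follow from the choice of genes by their likeness to APOA5 over the same fetuses. SULT2A1 parted most from APOA5 in HN fetus L2, where it was at -0.35 and APOA5 at -0.0070 from their means.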

How the data were processed

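Liver RNA of 8 fetuses was labelled with Cy3 and measured on 1-colour Agilent bovine arrays. The intensity of each spot, deposited by the authors, is the background-subtracted signal of Agilent Feature Extraction 11.0.1.1 and is not normalized across arrays. A log2 table of 31068 probes comes from the authors as well, and 98.9% of its values lay within 0.001 of a quantile normalization of the scanner intensities, the method named in the authors' methods. The members and gene lists were chosen with earlier results of these data known.

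Control spots and 16 probes with outlier flags were left out, repeated spots were averaged, and log2 intensities of 43637 probes were quantile normalized. Detection required a signal well above background on 4 or more of the 8 arrays. RefSeq accessions of 26740 probes matched 12603 genes of ARS-UCD2.0. The group difference was fitted in R 4.3.3 by lmFit and eBayes of limma 3.58.1, with moderated standard errors and Benjamini-Hochberg adjustment over 33439 probes. Exact permutation tests used all 70 divisions of the fetuses. Of the list of other lipoprotein genes, those with an unadjusted limma p of at most 0.05 or no overlap, and ANGPTL4, are named by rule, and CREB3L3 and some apolipoproteins and particle proteins of the list were named after their values were seen; 1 gene of this list is not reported here and was left out of its counts. The number of arrays limits the precision. Alternatives were another scaling, normexp, the authors' table, other filters, variance settings, array position as a block, another choice of probe, a 2-sided equal-variance test per probe and each fetus left out. The fit was tested on simulated data.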

Additional observations from a re-analysis of the deposited data

Results flagged for a closer look

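In 44 groups of 4 fetuses (18 probes of the 9 genes and 4 named genes, in LN and in HN), 3 held a fetus whose gap to the others exceeded Dixon's 95% critical value for 4 samples as a share of the range, where chance gives about 1 group in 20. On the APOC3 probe, LN fetus L6 was low at 13.21 while the other LN fetuses lay between 14.07 and 14.22, and HN fetus L10 was high at 15.16 while the other HN fetuses lay between 13.95 and 14.15. On the dimmer APOE probe, HN fetus L3 was low at 13.82, while the others lay between 14.67 and 14.78.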

How the results depend on the processing

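The count of genes with an adjusted p of at most 0.05 was 0 of 9 under every alternative. The count at an unadjusted p of at most 0.05 was 1, and it was 0 with scaling to the 75th percentile, normexp, no filter on dim probes, position on the slide as a block, a 2-sided equal-variance test per probe or the mean over the probes of a gene, and 2 with eBayes trend and robust settings. With each fetus left out in turn it ran from 0 to 3, the count of genes without overlap from 0 to 2 (1 without LN fetus L6 or HN fetus L3, 2 without LN fetus L8), the count lower in LN from 5 to 7 and the median log2 difference from -0.17 to -0.070. The count lower in LN, 6 of 9, was 8 with normexp and 9 as a mean over probes. APOA4, APOA5, APOC3, APOH and APOM were lower in LN under every alternative. The direction turned for genes near 0. APOA1 was -0.017 with normexp and -0.051 as a mean over probes. APOA2 was -0.036 with normexp and -0.022 as a mean over probes, and ran from -0.036 to 0.038 with each fetus left out. APOE was -0.0033 as a mean over probes, and ran from -0.0058 to 0.065 with each fetus left out. MTTP then ran from -0.17 to 0.049. The cause was not tested. No paired analysis was possible because the fetuses came from separate dams assigned at random to a diet. The block of array positions pairs places on the slides, not fetuses.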
